A study of Homo sapiens with 36 samples.

Results

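The late part of the response to the transcription factor E2F1 was followed by comparing cells after 8 h with cells after 4 h of its activation. The cells were U2OS ER-HA-E2F1, an osteosarcoma line that carries E2F1 fused to a ligand-binding domain of the estrogen receptor. The ligand 4-hydroxytamoxifen (OHT) moves this fusion protein into the nucleus. The comparison used 12 of the 36 arrays of the series, all from cells that had received a negative control siRNA and no knockdown of any gene. The 8 h group held 3 arrays with the Dharmacon and 3 with the Sigma-Aldrich control siRNA, and the 4 h group held 3 of each as well. Cells of both groups were starved of serum for 24 h from 18 h after transfection, and both then received 80 nM OHT in serum-free medium.

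The labels call the 3 arrays of a siRNA and time biological replicates and do not say whether they came from separate passages. Cells at 8 h had therefore had 4 h more of active E2F1, and also 4 h more of OHT and of starvation, and these cannot be told apart. The other arrays were used only beside this comparison. They were control siRNA cells at 0 h without OHT, and cells given siRNA against NFYB, from Ambion or from Dharmacon, at the same times, with 6 arrays per arm and time. NFYB is a subunit of NF-Y, a factor that binds the CCAAT box of many promoters. A limit of the model is that a single line carries the fusion gene and that E2F1 probe sets cannot tell its transcript from the endogenous one.

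E2F1 binds promoters of genes for DNA synthesis and entry into S phase and is held in check in resting cells by the retinoblastoma protein. It also activates genes of cell death, among them those of the caspase-activating apoptosome. Genes that E2F1 reaches directly can respond within hours, and their products, such as transcription factors, kinase inhibitors and secreted ligands, can alter further genes later. The interval from 4 h to 8 h holds both kinds of change, and expression arrays do not separate them.

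Each value is a MAS5 signal, a linear probe set intensity that the authors scaled on every array to a trimmed mean of 500. Changes are differences of mean log2 signal, 8 h minus 4 h, tested with limma (two-sided) over 22215 probe sets, and a probe set was called at a Benjamini-Hochberg adjusted p under 0.05. Since the signal of different probe sets depends on the probes, levels are compared between times and not between genes. In bulk RNA, fewer cells that express a gene and less RNA per cell cannot be told apart.

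No array stood apart. Correlations of log2 signal were 0.955 to 0.961 between arrays of a siRNA and time, 0.951 to 0.956 between the control siRNAs at a time, and 0.944 to 0.955 between 4 h and 8 h. The ratio of 3' to 5' actin signal, a measure of RNA integrity, was 2.69 to 3.53 at 4 h and 2.55 to 3.32 at 8 h. Markers of mesenchymal cells were bright, with mean 4 h signals of 16315 for VIM, 7970 for SPARC and 2007 for COL1A1. The osteoblast markers RUNX2 (23.6), IBSP (24.4) and ALPL (75.7) gave low signals, while SPP1 gave 557. Of the 11 measured markers of this list none was called by limma at 8 h (1 with an unadjusted p under 0.05, none by the methods' t-test), and its summed signal was 32905 to 37217 at 4 h and 31137 to 34854 at 8 h. Leukocyte markers summed to 218 to 336 at 4 h and 234 to 343 at 8 h, with none of 10 called by limma, by the methods' t-test or at an unadjusted p under 0.05. Epithelial markers summed to 7103 to 9999 and 6224 to 9163, nearly all from KRT18 and KRT8 while CDH1 was at 10.2 and 5.43, with none of 12 called by limma or the methods' t-test (2 at an unadjusted p under 0.05). Endothelial markers summed to 144 to 258 and 111 to 236, and TEK (-2.82 on the log2 scale) and CDH5 (-1.78) were called lower, both among the dimmest probe sets. The call for CDH5 (signals of 3.84 to 14.8 at 4 h) was lost, with an adjusted p up to 0.103, without any 1 array except Dharmacon 8 h replicate 1, Sigma-Aldrich 4 h replicate 2 and Sigma-Aldrich 8 h replicate 3.

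Between 4 h and 8 h more genes fell than rose. Of 22215 probe sets, 1585 (7.13%) were called higher and 2239 (10.1%) lower. Counting 1 probe set per gene, the brightest, 967 of 11963 genes (8.08%) were called higher and 1501 (12.5%) lower. The median change over these genes was -0.05 on the log2 scale, against which the shifts of gene lists given below can be read. From 0 h to 4 h more genes were called, 2037 of the 11963 higher and 3325 lower (median -0.14). List counts for the first 4 h are to be read against these numbers. Most changes were small. At least 2-fold changes were found for 210 of the probe sets called higher and 240 of those called lower, and 89 and 120 of these lay in the upper 60% of probe sets by signal. Of all calls, 1436 higher and 2105 lower were among the 13329 probe sets of this upper part. Dim genes thus lower the shares of all genes, and lists of mostly bright genes can exceed these shares for that reason. Among genes in this upper part, binned by genomic span as given below, 16.6% to 24.4% were called lower and 5.87% to 19.2% higher. List counts given without a share are to be read against these shares and those of all genes. Of the 3824 called probe sets, 2661 were called whichever 1 of the 12 arrays was left out. Without any model, 669 genes (5.59%) had all 6 arrays at 8 h above every array at 4 h, and 774 (6.47%) had all 6 below.

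**Figure D1:**
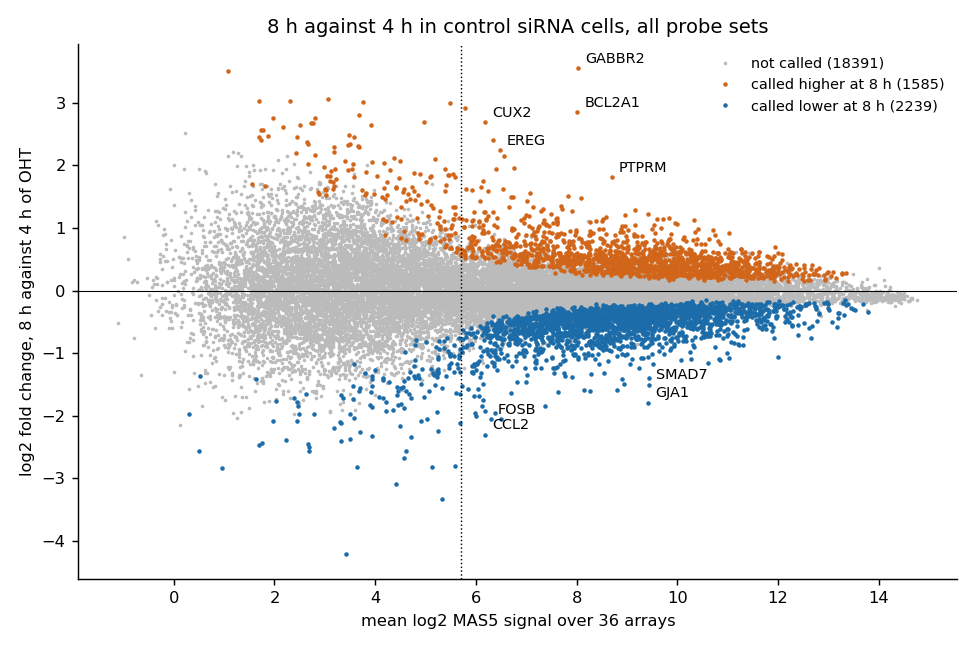
Change in log2 signal from 4 h to 8 h in control siRNA cells (vertical axis) against the mean log2 signal over all 36 arrays (horizontal axis), with 1 point per probe set. Orange points are the 1585 probe sets called higher, blue points the 2239 called lower and grey points the 18391 not called; the dotted line marks the lower edge of the upper 60% by signal, and to its left the uncalled changes spread widely.

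The gene with the greatest rise was GABBR2, which encodes a subunit of the metabotropic GABA-B receptor. Its signal was 125 to 270.4 with a median of 206 on the 6 arrays at 4 h, and 1786 to 2703 with a median of 2256 at 8 h. Every 8 h array was above every 4 h array by a wide margin. The change of 3.55 on the log2 scale (SE 0.16, n = 6 per group, limma adjusted p = 1.13e-18) was an 11.7-fold rise, and all 4 of its probe sets were called higher. GABBR2 had also risen by 1.80 from 0 h to 4 h, from a mean of 55.0.

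BCL2A1, an anti-apoptotic member of the BCL2 family, ran from 89.7 to 176 with a median of 119.9 at 4 h and from 715 to 1061 with a median of 898 at 8 h. The groups were far apart, and the change was 2.85 (SE 0.28, limma adjusted p = 2.08e-09), or 7.19-fold. BCL2A1 differed from GABBR2 in the earlier interval, where its change was 0.26 (adjusted p = 0.52). CUX2, a homeobox transcription factor, was between 45.5 and 72.8 (median 53.2) at 4 h and between 317 and 379.5 (median 356) at 8 h. Its signal rose 6.46-fold with no overlap, after a change of 1.48 on the log2 scale in the first 4 h.

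EREG, the EGF receptor ligand epiregulin, moved in both directions over the course. Its mean was 127 at 0 h, and its 4 h arrays held only 28.0 to 63.2 (median 38.0). At 8 h it was back at 131 to 242 (median 178), all above the 4 h arrays. The late rise was 4.73-fold (2.24 on the log2 scale, SE 0.26, limma adjusted p = 6.25e-08) and followed a fall by 1.55 on that scale. TGFA, a further ligand of the same receptor, rose over both intervals, from a mean of 145 at 0 h to 901 at 4 h and 1853 at 8 h, with the 8 h arrays 2.06-fold above the 4 h arrays and apart from them.

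The other genes among the 15 with the greatest rise went up 2.86-fold to 4.44-fold. Several encode proteins of the cell membrane or of its phosphoinositides. PIP5K1B, a kinase that makes phosphatidylinositol bisphosphate, rose from 48.9 to 81.8 (median 71.6) to 268 to 348 (median 287). PITPNC1, a phosphatidylinositol transfer protein, rose from 155 to 216 (median 179) to 439 to 575 (median 515). In both, the groups were apart. PTPRM, a receptor-type tyrosine phosphatase, fell slightly before 4 h (-0.35) and then rose from 209 to 311 (median 280.3) to 716 to 1126 (median 881), without overlap.

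CTNND2 (delta-catenin, a junction protein) rose 3.83-fold, SLC4A4 (a sodium bicarbonate cotransporter) 3.36-fold and PEAK1 (a pseudokinase of the cytoskeleton) 3.08-fold. P3H2, a collagen prolyl hydroxylase, rose 3.07-fold, and the stromelysin MMP10 rose 3.01-fold from a median of 46.6 to a median of 146. A probe set of SLC4A4 with similar signal at 4 h was not called (0.04, adjusted p = 0.934). On the probe sets with the greatest change, in these 5 genes all 8 h arrays were above all 4 h arrays, and none but SLC4A4 had been called at 4 h against 0 h. IL18R1, the interleukin-18 receptor, and CEMIP, a hyaluronan-binding protein, rose over both intervals. CEMIP went from a mean of 11.4 at 0 h to 208 to 313 at 4 h (4.75 on the log2 scale) and then to 659 to 916 at 8 h (1.56), again without overlap. ADCY2, an adenylyl cyclase, rose 3.14-fold on the probe set with the greater change (1.65) and by 1.09 on the brighter one, and it was the single gene of the 15 whose groups overlapped. In NFYB siRNA cells, where 7.7% of genes were called higher and 12.2% lower, all 15 were called higher as well.

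**Figure D2:**
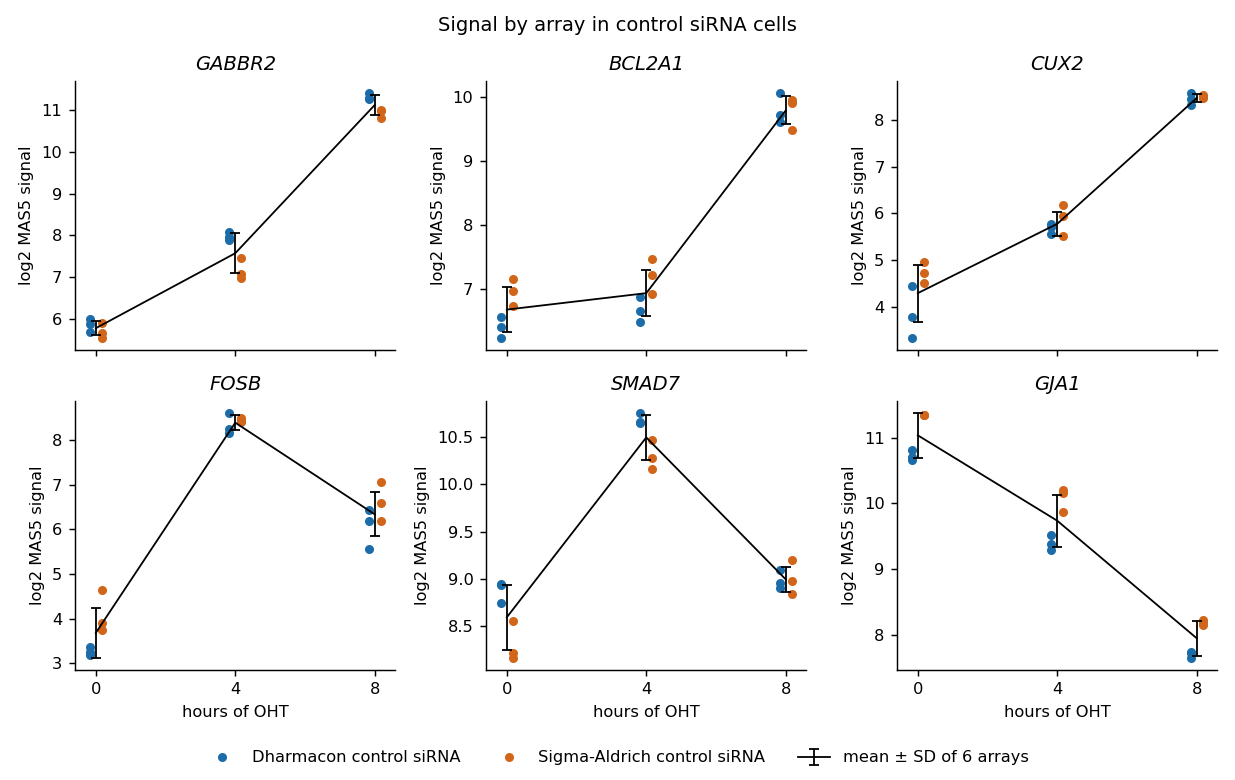
Log2 MAS5 signal (vertical axis) of 6 genes on each control siRNA array after 0, 4 and 8 h of OHT (horizontal axis), with the Dharmacon control siRNA in blue and the Sigma-Aldrich control siRNA in orange; black marks are the mean ± SD of 6 arrays. GABBR2, BCL2A1 and CUX2 rose between 4 h and 8 h, FOSB and SMAD7 rose by 4 h and fell by 8 h, and GJA1 fell over both intervals.

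The 15 genes with the greatest fall dropped 3.05-fold to 4.94-fold. FOSB, a subunit of the transcription factor AP-1, had risen in the first 4 h. It was near background at 0 h (mean 13.7), stood at 289 to 393 (median 344) at 4 h and was down to 47.6 to 133.2 (median 79.7) at 8 h. All 8 h arrays were below all 4 h arrays, and the change of -2.06 (SE 0.32, limma adjusted p = 8.71e-06) was a 4.17-fold fall after a rise of 4.72. NAB2, a corepressor of EGR proteins, had 2 probe sets that were called lower. On the brighter one its mean went from 604 to 774 and then to 428, a called rise of 0.36 (adjusted p = 0.0457) and then a fall (-0.90, SE 0.15, limma adjusted p = 2.0e-05). The dimmer one changed more, with overlapping arrays (97.5 to 228 at 4 h, 7.12 to 109.5 at 8 h). The call of the dimmer one (-1.75, adjusted p = 0.0366) was lost (adjusted p up to 0.149) without any 1 of 6 arrays, namely Dharmacon 4 h replicate 2, Dharmacon 8 h replicate 3, any of the Sigma-Aldrich 4 h replicates 1 to 3, or Sigma-Aldrich 8 h replicate 3.

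Several others fell in both intervals. GJA1, the gap junction protein connexin 43, had a mean of 2153 at 0 h, ran from 624 to 1179.9 (median 835) at 4 h and from 201 to 298 (median 248) at 8 h. The 3.46-fold late fall (-1.79 on the log2 scale, SE 0.15, limma adjusted p = 3.55e-11) followed one of -1.30, and the arrays did not overlap. The ligand BMP5 went from a mean of 261 to 102 and then to 28.8 (-1.96), but on its brighter probe set, from 814 at 4 h to 418 at 8 h, it fell less (-1.01 late and -0.48 early). The integrin subunit ITGB8 went from a mean of 228 to 137 and 45.3 (-1.63), with no call on a second, dim probe set (-0.31). ZBTB20, a zinc finger repressor, went from 992 to 380.4 and 116 (-1.61), and ANK3, the membrane adaptor ankyrin-G, from 184 to 87.4 and 26.9 (-1.69). The 8 h arrays of these 4 genes were all below their 4 h arrays.

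The chemokine CCL2 gave the greatest fall in the upper 60% by signal (-2.31, SE 0.58, limma adjusted p = 0.00361), but its arrays were scattered, from 17.6 to 229 at 4 h and from 4.92 to 45.3 at 8 h, and overlapped. The remaining genes of the 15 were the putative RNA helicase DDX31 (-2.01), the endogenous retroviral envelope gene ERVMER34-1 (-1.69) and the mTOR-associated MEAK7 (-1.85), each without overlap. In the Rap regulator SIPA1L3 (-1.95), the exonuclease ISG20 (-1.93), the splicing factor MBNL2 (-1.84) and the receptor GPRC5A (-1.63) at least 1 array at 8 h reached the 4 h range. SIPA1L3 was not called on its brighter probe set (-0.15, adjusted p = 0.826). GPRC5A was also called on its brighter one, which fell from a mean of 505 to 165 (-1.59, limma adjusted p = 3.55e-11). ISG20 changed by only -0.42 on its brighter probe set, and of the 15 it alone was not called lower with NFYB siRNA.

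Immediate-early genes, which encode short-lived transcription factors induced by many stimuli, fell as a list. Of 29 measured members 14 were called lower and 2 higher, against 12.5% and 8.08% of all genes, and the list's median change was -0.41. From 0 h to 4 h, 19 members had been called higher and 6 lower, with a median of 0.83, against 2037 and 3325 of all 11963 genes. The stress factor ATF3 rose from a mean of 163 at 0 h to 1268 to 1830.3 (median 1424) at 4 h and went down to 895 to 1107 (median 937) at 8 h. JUN, the partner of FOS proteins in AP-1, fell from 4713 to 5986 (median 5070.2) to 2617 to 3336 (median 3244). BHLHE40, a repressor of the clock and of differentiation genes, fell from 2395 to 3272 (median 2756) to 1178 to 1404 (median 1285). None of these 3 overlapped between the times.

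Among further members, chosen after their values were seen, the nuclear receptor NR4A1 had a mean of 113 at 0 h, 1170 at 4 h and 618 at 8 h (-0.89, adjusted p = 0.0273). SRF, the factor that binds the CArG box of many of these genes, went from a mean of 259 to 150.0 (-0.80, adjusted p = 0.00273), and MYC from 1173 to 781 (-0.58). The members called higher had other courses. EGR3 rose from 90.7 to 141 (0.67), and CCN2, a matrix-associated growth factor, fell from 6392 at 0 h to 1051 at 4 h before rising to 1560 (0.59). EGR1, the best known gene of the list, kept a signal of 11134 at 4 h and 11979 at 8 h and was not called (0.10, adjusted p = 0.437).

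Single genes of the signaling lists had risen by 4 h and then fell. SMAD7, which blocks TGF-beta receptors, had a mean of 395 at 0 h, 1151 to 1734 (median 1517) at 4 h and 459 to 587 (median 500.3) at 8 h. The fall was 2.84-fold (-1.51, SE 0.13, limma adjusted p = 5.83e-11), with all 8 h arrays below all 4 h arrays. NFKBIA, the inhibitor of NF-kB, went from 266 to 1148 and 515 (-1.17), and TNFAIP3, an enzyme that limits NF-kB signaling, from 155 to 507 and 252 (-1.02). The Notch target HES1 went from 776 to 3162 and 1679 (-0.91), again apart, and the MAP kinase phosphatase DUSP1 from 623 to 2951 and 1798 (-0.67), with overlap.

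By list, TGF-beta and BMP signaling had 13 of 40 genes called lower and 2 higher (median -0.14). Beside SMAD7 these were the ligand TGFB2 (251 to 279 at 4 h, 106 to 175 at 8 h, -1.01) and the inhibitor of differentiation ID1 (1273 to 1479.9, then 735 to 984, -0.72). The ligands BMP7 (0.54) and BMP6 rose, BMP6 from 171 to 238 (median 195) to 389 to 449 (median 419.6), or 2.13-fold. NF-kB pathway and targets had 7 of 33 (21.2%) lower and 2 higher, Notch signaling 5 of 21 (23.8%) lower and 1 higher, and Wnt signaling 7 of 40 (17.5%) lower and 2 higher. Of all genes 12.5% were called lower, and of bright genes, binned by span, 16.6% to 24.4%. The counts called lower thus do not set these lists apart from bright genes. The Wnt receptor FZD2 was the steepest bright member of its list, at 393 to 847 at 4 h and 130.4 to 256 at 8 h (-1.49, adjusted p = 2.26e-07), after a fall from a mean of 1157 at 0 h.

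MAP kinase phosphatases and Sprouty genes had 4 of 15 called lower and 1 higher, and 2 lower without any 1 of 7 arrays (Dharmacon 4 h replicate 1 and 8 h replicates 2 and 3, Sigma-Aldrich 4 h replicates 1 and 2 and 8 h replicates 2 and 3). Receptor tyrosine kinases and their ligands had 5 of 38 higher and 4 lower, with EREG and TGFA rising and PDGFC, a PDGF receptor ligand, going from a mean of 1996 at 0 h to 538 and then 255 (-1.10). The interferon and antigen presentation list had 8 of 35 lower and 2 higher, but only 3 lower without Sigma-Aldrich 4 h replicate 2 or 3, 4 without Sigma-Aldrich 4 h replicate 1 or Dharmacon 8 h replicate 2, and 5 without Dharmacon 8 h replicate 3. The FOXO list had 2 of 17 in each direction.

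Genes of DNA replication, the best known targets of E2F1, changed in both directions, and the promoters of some of them show the 2 sequence elements that the series concerns. The promoters are shown for GINS2 (a subunit of the replicative helicase, which rose), ORC1 (of the origin recognition complex, which fell), PRIM1 (the primase, which fell), CDC20 (an activator of the anaphase-promoting complex, which fell) and SRF. They were chosen after their values and sequences were seen and are taken from RefSeq on GRCh38.p14, from 250 bases before to 50 after the gene's start, 5' to 3' on the gene's strand. They lie at chr16:85688905-85689204 (minus strand) for GINS2, chr1:52404374-52404673 (minus) for ORC1, chr12:56752274-56752573 (minus) for PRIM1, chr1:43358731-43359030 (plus) for CDC20 and chr6:43171019-43171318 (plus) for SRF. Capitals mark CCAAT (or ATTGG), the E2F motif TTCGCGC with its variants TTGGCGC, with TTCCCGC and with TTGCCGC, all on either strand, and, in SRF, the CArG box.
GINS2: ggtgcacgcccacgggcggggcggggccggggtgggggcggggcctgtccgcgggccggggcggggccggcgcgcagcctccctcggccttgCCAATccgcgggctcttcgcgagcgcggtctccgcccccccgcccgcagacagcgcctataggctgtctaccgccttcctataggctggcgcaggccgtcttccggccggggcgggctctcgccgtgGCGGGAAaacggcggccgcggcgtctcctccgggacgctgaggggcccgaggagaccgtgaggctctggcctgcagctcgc
ORC1: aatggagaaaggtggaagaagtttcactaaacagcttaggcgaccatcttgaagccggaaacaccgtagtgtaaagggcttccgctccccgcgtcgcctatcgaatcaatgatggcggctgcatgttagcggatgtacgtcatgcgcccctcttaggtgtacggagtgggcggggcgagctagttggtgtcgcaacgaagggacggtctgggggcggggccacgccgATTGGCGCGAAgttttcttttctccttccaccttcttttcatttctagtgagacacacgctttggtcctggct
PRIM1: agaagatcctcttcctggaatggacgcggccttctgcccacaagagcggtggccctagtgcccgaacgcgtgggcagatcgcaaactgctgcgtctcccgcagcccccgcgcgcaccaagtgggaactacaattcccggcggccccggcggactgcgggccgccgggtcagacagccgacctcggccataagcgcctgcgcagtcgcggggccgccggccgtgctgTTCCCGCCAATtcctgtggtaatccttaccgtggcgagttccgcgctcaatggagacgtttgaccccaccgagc
CDC20: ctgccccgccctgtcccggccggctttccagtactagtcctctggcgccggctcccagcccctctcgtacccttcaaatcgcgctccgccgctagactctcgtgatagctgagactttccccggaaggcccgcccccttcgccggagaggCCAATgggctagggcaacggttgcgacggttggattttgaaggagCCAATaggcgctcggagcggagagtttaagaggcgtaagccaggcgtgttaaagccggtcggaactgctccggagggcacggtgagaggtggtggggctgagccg
SRF: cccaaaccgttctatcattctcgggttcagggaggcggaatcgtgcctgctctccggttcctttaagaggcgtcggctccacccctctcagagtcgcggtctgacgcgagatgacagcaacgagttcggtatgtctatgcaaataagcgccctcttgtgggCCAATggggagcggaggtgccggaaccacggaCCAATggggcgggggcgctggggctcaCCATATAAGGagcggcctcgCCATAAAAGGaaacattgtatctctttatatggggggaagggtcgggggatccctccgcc
Positions count from the gene's start, with negative numbers upstream, and give the first base of a match. GINS2 holds a CCAAT match at -158 and an E2F match at -31. In ORC1, a CCAAT match at -23 shares bases with E2F matches at -22 and -19, which also overlap each other, and in PRIM1 an E2F match at -24 and a CCAAT match at -18 share bases. CDC20 has CCAAT matches at -100 and -55 and no letters of these E2F motifs in the window, and SRF has CCAAT matches at -89 and -57 and CArG matches at -30 and -10. A match is a feature of the sequence and was not tested for binding.

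Of 38 promoters of the replication list in the RefSeq table, 26 (68.4%) held an E2F motif and 20 (52.6%) a CCAAT box, against 18.7% and 37.3% of the 9562 measured genes with a promoter there. Across all genes, an E2F motif was found in 22.8% of promoters of genes called higher and 18.9% of those called lower. CCAAT was in 35.3% and 41.9%. Promoters of immediate-early genes held an E2F motif in 1 of 22 (4.55%) and a CArG box in 2 of 22 (9.09%), where 1.28% of measured promoters held a CArG box. These shares are descriptions without a test, and the CArG search was added after the data were seen.

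In the replication and G1/S list 6 of 44 genes were called higher and 8 lower, shares near those of all genes, with a median of 0.00. In the first 4 h, 19 had been called higher and 16 lower, against 2037 and 3325 of all 11963 genes. MCM5, a subunit of the MCM helicase, fell from 1379.6 to 1671 (median 1537) to 940.5 to 1103 (median 1023), a change of -0.59. PRIM1 fell from 2017 to 2231 (median 2134) to 1476 to 1594 (median 1514), and ORC1 from 84.5 to 118 (median 108) to 33.1 to 64.4 (median 53.8). The groups of all 3 were apart. The GINS subunits went the other way, with GINS3 rising from 270.5 to 354 (median 304) to 435 to 492 (median 452), also apart, and GINS2 from a mean of 2139 to 2842 (0.41). Cyclin E1 (CCNE1), which drives entry into S phase, had risen from a mean of 1135 at 0 h to 7606 at 4 h and was at 8501 at 8 h, a late change of 0.16 that was not called (adjusted p = 0.266).

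Nucleotide synthesis genes were also split, with 4 of 31 higher and 7 lower. The salvage kinase DCK rose from 3111 to 4995 (0.66, adjusted p = 0.0157) and the ribonucleotide reductase subunit RRM2 by 0.27, while the purine synthesis enzyme GART fell from 565 to 839 (median 677) to 491 to 547 (median 515). Of 36 measured replication-dependent histone genes, whose transcripts lack a poly(A) tail and are poorly captured by oligo(dT) priming, 3 were called lower and none higher.

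Mitotic genes had 9 of 48 called lower and 6 higher. CDC20 fell from 1782 to 2546 (median 2249.8) to 950.0 to 1425 (median 1230.1), 1.79-fold, after a fall from a mean of 3416 at 0 h. KIF20A, a kinesin of cytokinesis, went from 539.7 to 845 (median 722) to 299 to 512 (median 436), and AURKB, the kinase of the chromosomal passenger complex, from 344 to 490.5 (median 374) to 231 to 276 (median 248). These 3 did not overlap between times. Among those called higher, chosen after their values were seen, were the kinetochore gene NDC80 (0.41) and the kinase AURKA (0.32). In the fit that treated siRNA and time as 12 groups, the counts of this list were 13 higher and 19 lower. The list of ubiquitin ligases of the cell cycle, which shares CDC20 and UBE2C with it, had 7 of 23 lower and 2 higher.

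Of 12 measured E2F, DP and pocket protein genes, E2F6, a repressor, was the one called on the brightest probe set, from 969 to 1103 (median 1068) to 854 to 958 (median 876), a change of -0.25 without overlap. E2F1 itself was at 198 to 322 (median 225) at 4 h and 199.9 to 268 (median 260.4) at 8 h, and its change of 0.05 (adjusted p = 0.853) was within the spread of the arrays. Any transcript of the fusion gene in this signal cannot be told from the endogenous one. Dimmer probe sets of the dimerization partner TFDP2 (0.52, adjusted p = 0.00204) and of the pocket protein RBL2 (-0.79, adjusted p = 0.0298) were called, while their brightest ones were not (0.26 and -0.24). Of CDK inhibitors and D-type cyclins, 3 of 13 were higher and 2 lower. Cyclin D3 (CCND3) went from a mean of 1022 at 0 h to 2867 to 3098 (median 3001) and then 4117 to 4867 (median 4543), and the inhibitor CDKN1C from 369 to 1956 to 2666 (median 2322) and then 3020.2 to 4917 (median 3888). Both rose without overlap. The inhibitor CDKN1B had risen from 1415 to 6711 by 4 h and was lower at 8 h (4812, -0.46), with overlap. Chromatin regulators of E2F promoters had 3 of 31 higher and 4 lower.

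DNA damage checkpoint and repair genes were among the lists with the most falls, 15 of 46 against 1 rise, with a median of -0.18. In the first 4 h, 23 had been called lower and 3 higher, against 3325 and 2037 of all 11963 genes. DDB2, a sensor of UV lesions, fell from 468 to 756 (median 599) to 223 to 439.7 (median 322). RAD50 and MRE11, partners in the complex that detects double-strand breaks, fell 1.84-fold (189 to 319.5, then 112 to 162) and 1.79-fold (398 to 572, then 203 to 301). XPC, which recognizes bulky lesions, fell from 240.0 to 433 (median 317) to 165 to 216 (median 190.2). The 8 h arrays of these 4 genes were all below their 4 h arrays. The exonuclease gene EXO1 was the one called higher (0.31), chosen after its value was seen.

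The p53 target list, which shares DDB2, XPC, TNFRSF10B and CDKN1A with other lists, had 8 of 25 lower and 4 higher, with a median of -0.24. The count called lower ranged from 4 with the methods' t-test on linear signal to 15 with 12 groups in the fit. CDKN1A, the p53-induced CDK inhibitor, was called higher by 0.30, and the membrane protein PERP by 0.71.

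Genes that promote apoptosis were split evenly, with 5 of 33 higher and 5 lower. MAP3K5, a kinase upstream of JNK and p38, had a mean of 159.6 at 0 h, 1553 to 1976 (median 1901) at 4 h and 2806 to 3072 (median 2931) at 8 h. PPP1R13B, which aids p53 at death gene promoters, rose from 231 to 269.6 (median 246) to 405 to 545 (median 481), 1.93-fold. APAF1, the core of the apoptosome, went from a mean of 128 at 0 h to 511 to 868 (median 710.3) and then 922 to 1208 (median 1088). The groups of all 3 were apart, as were those of SIVA1, a proapoptotic adaptor, at 831 to 1241 and 1381 to 1651 (0.61, adjusted p = 2.43e-07). By limma, APAF1 was not called on its dimmer probe sets (0.27, adjusted p = 0.468, and 0.30, adjusted p = 0.736). SIVA1 was called on a second probe set (0.66) but not on its dimmest (0.15, adjusted p = 0.544).

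Opposite changes were found for the death receptor TNFRSF10B, which fell from 784 to 1055 (median 902) to 570.2 to 767 (median 593), and for MOAP1, a binding partner of BAX, which had risen from 435 to 2711 by 4 h and was at 1926 at 8 h (-0.49). The initiator caspases CASP8 (-0.85) and CASP9 (184 to 109 in means, -0.73), named after their values were seen, were called lower too. The anti-apoptotic list had 5 of 24 higher and 3 lower. BCL2A1 (2.85) rose most, BCL2 rose from 196 to 393 (median 258) to 424 to 670.3 (median 505) after a mean of 69.0 at 0 h, and the kinase AKT1 rose from 665 to 733 (median 694) to 857 to 1064 (median 912). CFLAR, an inhibitor of caspase-8, fell from 329 to 460.3 (median 394) to 163 to 281 (median 203). Each of these 4 was without overlap.

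Actin cytoskeleton and adhesion genes had 8 of 38 lower and none higher (18 lower with 12 groups in the fit), with VCL (vinculin, at focal adhesions) at 2587 to 3001 (median 2915) and then 1285 to 1951 (median 1511). The cardiac ankyrin repeat protein gene ANKRD1 went from a mean of 2064 at 0 h to 751 and 264, and its late fall was 2.64-fold. Both were without overlap. In the endoplasmic reticulum list 5 of 32 were lower and 1 higher, led by the stress factor DDIT3, which rose from 204 to 639 to 1275 (median 892) and fell to 284 to 485 (median 358), a change of -1.31. Its chaperone HSPA5 fell from 8474 to 9098 to 6406 to 7372 (-0.36). Cytosolic chaperones had 6 of 34 lower and 4 higher, but 3 lower without Dharmacon 4 h replicate 2 or any 1 of the Sigma-Aldrich 8 h replicates 1 to 3. The co-chaperone DNAJB1 rose from 1044 to 1451 (median 1244) to 1682 to 2020.1 (median 1894).

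Extracellular matrix genes had 5 of 51 lower and 1 higher. Their count called lower was 3 without Dharmacon 4 h replicate 3 or Sigma-Aldrich 8 h replicate 1 or 2, and 9 without Sigma-Aldrich 4 h replicate 1, and it was 19 with 12 groups in the fit. The collagen chaperone SERPINH1 fell from 2017 to 2299.6 to 1143 to 1437 (-0.72), without overlap. Matrix proteases and inhibitors had 3 of 28 in each direction, with the plasminogen activator PLAT falling from 909 to 1129 (median 1015) to 461 to 578 (median 518). HOX genes and cofactors had 10 of 28 lower and 2 higher, with a median of -0.27, and included HOXB2 (409.7 to 511, then 279.9 to 328, -0.59) and HOXC6 (958 to 1369, then 697 to 914, -0.56), both without overlap.

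Among lists of metabolism and organelles, the mitochondrial ribosome had 12 of 46 lower and 1 higher, a count that ranged from 5 with the methods' t-test to 24 with 12 groups. Ribosome biogenesis had 10 of 37 lower and 2 higher, with the nucleolar PES1 (484 to 838, then 375 to 467) and NOP16 (521 to 797, then 331 to 512) both lower without overlap. Oxidative phosphorylation had 9 of 55 lower and none higher (16 lower with 12 groups). These 3 lists had fallen more broadly in the first 4 h, with 38, 23 and 50 members called lower. In that interval 3325 of all 11963 genes were called lower, also more than later. Proteasome genes had 4 of 35 lower and 1 higher, after 30 lower in the first 4 h, and none of 40 cytosolic ribosomal protein genes was called by limma or the methods' t-test, with 3 lower at an unadjusted p under 0.05.

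Cholesterol synthesis had 5 of 20 lower and none higher (11 lower with 12 groups), among them its regulator SREBF1 (634 to 759, then 425 to 551, -0.53). In fatty acid synthesis 4 of 15 were lower, such as malic enzyme ME1 (1066 to 1494, then 795 to 1003), and 1 was higher, the acyl-CoA synthetase ACSL1, which went from a mean of 303 at 0 h to 822 to 1128 (median 902) and 1693 to 2428 (median 2019). Those 3 were without overlap. Autophagy had 5 of 32 higher and 4 lower, with the receptor NBR1 falling 1.76-fold (659 to 936, then 395 to 534). Glycolysis had 1 of 26 higher and 2 lower, lysosome 3 of 40 lower and none higher (1 without Dharmacon 8 h replicate 2, Sigma-Aldrich 4 h replicate 1 or 3, or Sigma-Aldrich 8 h replicate 3), and splicing factors 6 of 47 higher and 3 lower. None of 9 metallothioneins was called by limma (1 lower at an unadjusted p under 0.05 and 1 by the methods' t-test), after 7 had been called lower in the first 4 h.

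Of the NF-Y subunits, NFYB went from a mean of 187 at 0 h to 389 to 491 (median 446) at 4 h and 579 to 717 (median 654) at 8 h. All 8 h arrays were above all 4 h arrays, but the call (0.57, SE 0.19, limma adjusted p = 0.0335) was lost (adjusted p up to 0.0700) without any 1 of 5 arrays, namely Dharmacon 8 h replicates 1 and 2, Sigma-Aldrich 4 h replicates 1 and 3 and Sigma-Aldrich 8 h replicate 2. A brighter NFYB probe set on these arrays (0.58) was not called and a dimmer one (0.60, adjusted p = 0.0216) was. NFYA was called higher by 0.32 (349 to 446, then 377 to 528, with overlap). Of its dimmer probe sets, one was also called (0.52) and the others were not (0.07 and 0.90). NFYC was called lower (-0.26, adjusted p = 0.0431), with overlap, and lost the call without any 1 of 9 arrays (adjusted p up to 0.105), all but Dharmacon 4 h replicates 1 and 3 and 8 h replicate 2. A dimmer NFYC probe set was also called lower by limma (-0.22, adjusted p = 0.0272), and its others were not called (-0.20 and -0.14).

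Of the other genes that the study names for this experiment, the kinase PRKCZ rose from 506 to 693 (median 668) to 654 to 987 (median 943), with overlap at its lowest 8 h array (0.47, adjusted p = 0.00146). FOXO1, a transcription factor that AKT restrains, had gone from 135 to 819 by 4 h and fell to 612 (-0.42), and the mitotic phosphatase CDC25C fell from 227 to 351.2 to 174 to 240.0 (-0.46). Dimmer probe sets of FOXO1 (-0.46) and of CDC25C (-0.28 and 0.33) were not called. On their brightest probe sets CDC25A, CDK1, CCNA2, CCNB2, TOPBP1, FOXO3, API5 and MALT1 were not called. FOLH1 (-0.47) was not called on a dim probe set. The probe sets on which the study lists FOLH1 are others, which are not annotated to it alone and were not read for it here. The changes of all but FOLH1 ran from -0.17 (CCNB2, adjusted p = 0.0798) to 0.42 (CCNA2, adjusted p = 0.0872). The mitotic kinase CDK1 was called higher on its other 2 probe sets, by 0.26 (adjusted p = 0.0223) and 0.31 (adjusted p = 0.00769). SFRP1, a secreted Wnt antagonist, was at 808 to 1346 (median 1117) at 4 h and 1151 to 1655 (median 1432) at 8 h, with overlap, and was called higher by 0.32 (adjusted p = 0.0396). Its other 2 probe sets were not called, and the call was lost (adjusted p up to 0.162) without any 1 of the Dharmacon 8 h or Sigma-Aldrich 4 h arrays.

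Genes called higher at 8 h had long genomic spans. The genomic span from RefSeq (GRCh38.p14) was compared because many of the greatest rises were in long genes, so this description was chosen after the values were seen. Of the 15 greatest rises 11 were in genes over 100 kb, with a median of 316 kb, and of the 15 greatest falls 5 were, with a median of 28.3 kb. CTNND2 (933 kb), PTPRM (840 kb) and SLC4A4 (509 kb) were the longest of the first, while BCL2A1 (10.3 kb), MMP10 (10.1 kb) and EREG (23.6 kb) were short. Over all genes with a span, the median was 53.4 kb for the 967 called higher, 29.98 kb for the 1501 called lower and 27.1 kb for those not called.

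The share of genes called higher was 3.68% below 10 kb, 5.80% from 10 to 20 kb, 8.04% from 20 to 50 kb, 10.0% from 50 to 100 kb, 14.4% from 100 to 200 kb, 14.2% from 200 to 400 kb and 12.3% above 400 kb. The share called lower stayed between 11.6% and 14.8%. Mean signal differs between these bins, and in the upper 60% of probe sets by signal the share called higher was 5.87% below 10 kb and 19.2% from 100 to 200 kb. The share called lower there was 21.9% below 10 kb, 16.6% to 17.3% in the bins from 10 to 400 kb and 24.4% above 400 kb. In NFYB siRNA cells, on other arrays, the shares called higher were 3.57% below 10 kb and 13.01% from 100 to 200 kb. At 4 h against 0 h, the median span was 37.6 kb for genes called higher and 28.3 kb for those called lower. What underlies these shares was not tested.

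The same 4 h interval was measured on 12 separate arrays with siRNA against NFYB. There 1441 probe sets (6.49%) were called higher and 2219 (9.99%) lower. Of the probe sets called higher in control siRNA cells 1032 were also called higher with NFYB siRNA, which is 65.1% of the first set and 71.6% of the second. For those called lower the number was 1495, or 66.8% and 67.4%, and 1 probe set was called in opposite directions. The sign was the same in 97.8% of the probe sets called in control siRNA cells and in 72.0% of all. Across probe sets, which are not independent replicates, the changes had a Pearson r of 0.838 in the upper 60% by signal and 0.391 over all. Over probe sets called in control siRNA cells, the median ratio of the NFYB siRNA to the control siRNA change was 0.843. These probe sets were chosen by their control siRNA change, which by itself lowers the ratio, so it cannot show a weaker change with NFYB siRNA.

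The difference between the arms was tested directly. By limma no probe set passed (0% of 22215, smallest adjusted p = 0.506), and 871 (3.92%) had an unadjusted p under 0.05. The test leaves room for moderate differences, since over bright called probe sets the median 95% interval of the difference ran 0.31 to either side on the log2 scale. Its fit pooled the siRNAs of an arm, so differences between them add to its error. With the siRNAs as groups of their own the difference was not tested. CDC25C had the smallest p of the study's genes for this difference. It changed by -0.46 with control siRNA and by 0.15 with NFYB siRNA, a difference of 0.61 (unadjusted 95% interval 0.33 to 0.89, adjusted p = 0.506). For EREG, whose late rise was 2.24 with control siRNA and 1.26 with NFYB siRNA, the difference was -0.99 (interval -1.74 to -0.24, adjusted p near 1). The probe set called in opposite directions, singled out after its values were seen, is annotated as LOC100288570 and lies below the upper 60% by signal.

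The control siRNAs were also set against each other, in a fit with siRNA and time as 12 groups. Differences between siRNAs do not enter the error of this fit, so its counts cannot be compared with those of the difference between arms. The change from 4 h to 8 h differed between the control siRNAs for 7 probe sets (0.0315% of 22215), all with a lower change with the Sigma-Aldrich siRNA, while 2300 (10.4%) had an unadjusted p under 0.05. Of these, 6 name a single gene. NAV3, a neuronal navigator gene, changed by 1.34 with the Dharmacon and by 0.27 with the Sigma-Aldrich siRNA (difference -1.07, SE 0.18, limma adjusted p = 0.00658, n = 3 arrays per siRNA and time). The cytoskeletal LIMCH1 (0.81 against -0.09) and the inositol transporter SLC5A3 (0.67 against 0.03) were not called over both siRNAs together. The zinc finger gene ZNF239 (0.65 against -0.61) and ANKZF1 (1.02 against -2.15) changed in opposite directions with the 2 siRNAs, and ANKZF1 had signals of only 11.6 to 104 at 4 h. DEPP1, a FOXO-responsive gene, changed by -0.10 and -2.91, and its call over both siRNAs (-1.50, adjusted p = 0.0236) was lost, with an adjusted p up to 0.0900, without Dharmacon 8 h replicate 3 or any 1 of the Sigma-Aldrich 4 h replicates 1 to 3. None of the genes with the 15 greatest rises or falls was among the 7.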

How the data were processed

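Expression was measured on Affymetrix human 3' expression arrays. The authors purified RNA on a QIAcube, amplified and labeled it with MessageAmp Premier, and obtained the MAS5 signals from Expression Console (version not given in the sources used here). The deposited values are linear signal intensities, and the authors' scaling to a trimmed mean of 500, with 2% cut from both tails, was checked on every array. No detection calls were used here, and the number of arrays limits the precision. Of 22277 probe sets, 62 controls were left out; of the 22215 tested 19064 name 1 gene, 1043 several and 2108 none.

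The log2 of the deposited intensity, without an offset, entered a limma fit (version 3.58.1, R 4.3.3) over all 36 arrays in which each arm and time formed a group of 6, since the study pools the siRNAs of an arm. Moderation of the variances used a trend on mean signal and left 36.3 degrees of freedom. Each test was two-sided, with Benjamini-Hochberg adjustment over the 22215 probe sets. The script was tested on simulated data. The control siRNAs were compared in a fit of 12 groups of 3. A list is described by its counts and median, with the brightest of a gene's probe sets; no set test was run. Probe sets of a named gene were not called in opposite directions.

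Genes were named by a rule: the 15 greatest rises and the 15 greatest falls, using each gene's greatest probe set, taken from called ones of a single gene with signal in the upper 60% and the same sign for both control siRNAs; for each list, its called members of lowest adjusted p, at most 4; the genes the study names; the NF-Y and E2F families; and genes whose change differed between the control siRNAs. Other names are marked as chosen after their values were seen, and this holds for any further list member given only with its log2 change. The comparison, the lists and the rule were chosen with earlier results of these data known. Gene names are those of the platform annotation given. The fit was repeated after quantile normalization, with an offset of 16, on the upper 60% by signal, without the trend, on only the arrays compared, with 12 groups, with siRNA or replicate number as a block, with each control siRNA alone, with the mean of a gene's probe sets, with the t-test of the study's methods on linear and log2 signal, and without each array or replicate number in turn. Python 3.11.15, numpy 2.4.6, pandas 2.3.3, scipy 1.17.1 and matplotlib 3.10.9 were used for tables and plots.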

Additional observations from a re-analysis of the deposited data

Results flagged for a closer look

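In each group of 6 arrays the highest or lowest array of a named gene was set against the rest, and in 19 of 400 groups (4.75%) its gap to the nearest array, divided by the group's range, was above Dixon's 95% critical value for 6. Chance flags about 1 in 20 groups. At 8 h with the Sigma-Aldrich siRNA, replicate 1 was the lowest for ADCY2 (0.666) and ERVMER34-1 (0.706) and the highest for SIPA1L3 (0.646), TNFRSF10B (0.792) and ATF3 (0.643), and replicate 3 was the lowest for CTNND2 (0.664) and the highest for P3H2 (0.740). In SIPA1L3 that array (64.8) makes the 8 h group overlap the 4 h group. At 8 h with the Dharmacon siRNA, replicate 1 was the highest for PSMD5 (0.671) and TOPBP1 (0.663) and the lowest for LOXL1 (0.656), replicate 2 the lowest for NOTCH4 (0.728) and the highest for TEK (0.744), and replicate 3 the lowest for NFYA (0.626) and PRKCZ (0.794). At 4 h, Dharmacon replicate 2 was the lowest for NOTCH4 (0.711) and PRKCZ (0.776), Dharmacon replicate 3 the highest for LOXL1 (0.635) and TEK (0.693), and Sigma-Aldrich replicate 2 the highest for DUSP9 (0.679).

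The 8 h against 4 h change differed between the control siRNAs, in a limma test of the difference itself, for 6 named genes. The Sigma-Aldrich minus Dharmacon differences on the log2 scale were -1.07 for NAV3, -1.26 for ZNF239, -2.80 for DEPP1, -0.90 for LIMCH1, -0.64 for SLC5A3 and -3.17 for ANKZF1.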

How the results depend on the processing

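In control siRNA cells 1585 probe sets were higher and 2239 lower, and under the alternatives to the fit that kept all 12 arrays the count called lower moved by over 1.5 times only with siRNA and time as 12 groups (3411). Quantile normalization gave 1822 higher and 1970 lower. Without any 1 replicate number the counts were 814 to 951 higher and 1145 to 1328 lower in control siRNA cells and 792 to 838 higher and 1152 to 1255 lower with NFYB siRNA. Without any 1 array of the comparison they were 1399 to 1518 and 1893 to 2225. With fewer arrays the fit has fewer degrees of freedom. The t-test of the methods, after adjustment, gave 1400 and 1549 on linear and 1387 and 1606 on log2 signal. With the replicate number as a block the counts were 1558 and 2201, and 1411 and 2180 with NFYB siRNA, and the difference between arms stayed at 0. That difference was not tested with 12 groups or with siRNA as a block. Deviations from group means correlated by -0.047 to 0.094 between arrays of one number and by -0.071 to 0.077 between others. With the Dharmacon siRNA all values of one number (0.056 to 0.094) were above those between others (-0.071 to 0.008). With the Sigma-Aldrich siRNA they were -0.047 to 0.062 and -0.052 to 0.077. Deviations from means of 3 arrays cannot tell whether arrays of one number are paired.

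The difference between the control siRNAs, with 0 probe sets higher and 7 lower, gave 3 higher with an offset of 16 and with the upper 60%, 1 with quantile normalization, with only the arrays compared and with the replicate block, and 1 lower with only the arrays compared. Without any 1 replicate number it gave 0 to 1 higher and 0 to 2 lower. In single siRNAs, ANKZF1 was 1.02 (adjusted p = 0.0434) with Dharmacon and ZNF239 -0.61 (adjusted p = 0.0106) with Sigma-Aldrich alone, opposite to both together. Of 175 called named genes 102 were called under every alternative, 14 lost the call without 1 array at least once and 59 under another alternative only. Over all values of genes and lists under these alternatives, 7079 kept direction and call (or, for a count, stayed within 1.5 times), 300 lost and 44 gained a call, and 432 counts moved by more. With siRNA and time as 12 groups, 42 of 88 list counts moved by over 1.5 times, all of them upward. The causes were not tested.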
